A study of Mus musculus with 60 samples.

Results

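Double mutant Dmdmdx/Largemyd mice were compared with Largemyd mice at 21 days of age in calf muscle, using the 10 arrays of these groups out of 60 in the series. The members were chosen by label: 5 arrays of male double mutant mice and 5 of male Largemyd mice, all 21 days old and untreated. Both groups carry the Largemyd allele, and the double mutant carries the Dmdmdx allele as well, so the comparison asks what the added Dmdmdx allele goes with in muscle that already has Largemyd. The rest of the series holds C57Bl/6 and Dmdmdx mice of the same age and all 4 lineages at 3 and 6 months, with 5 arrays in each of 12 groups. Each array is 1 animal with no technical replicate, so the p-values describe the spread between mice. The labels say nothing of littermates, and the double mutant line need not share its genetic background with the Largemyd line; background and the Dmdmdx allele cannot be told apart here.

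Dystrophin, the product of Dmd, sits under the muscle fibre membrane and ties the actin cytoskeleton to dystroglycan, which binds laminin outside the cell through sugar chains. The Dmdmdx allele is a premature stop in dystrophin, and the Largemyd allele affects a glycosyltransferase that builds those sugar chains. Loss of either side of this link makes fibres fragile, and in mice the calf muscle passes through cycles of necrosis, inflammation and regeneration from about weaning age.

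The values are log2 expression levels summarised per probe set by RMA, a method that corrects background, normalises arrays and combines probes; 1 unit is a doubling. Differences below are double mutant minus Largemyd on this scale, each ± its standard error (SE). They come from limma's moderated test fitted over all 60 arrays, and a gene passed at an adjusted p under 0.05 over 19938 genes. Each SE uses 1 spread per gene, pooled over the 12 groups and moderated across genes. It is therefore not the spread of these 10 mice. For Kera the standard deviations were 1.46 in the double mutants and 0.27 in Largemyd, with an SE of 0.34. For Dmd they were 0.11 and 0.11, with an SE of 0.18.

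Several of the 10 arrays stood apart. Double mutant mouse 5 carried bone marrow markers at a mean log2 level of 10.71 over 13 genes, against 6.01 to 6.68 in the other double mutants and 5.84 to 6.34 in Largemyd. Double mutant mice 2 and 3 carried skin markers at 7.5 and 8.38 over 16 genes, against 6.09 to 6.24 in the other double mutants and 5.92 to 7.0 in Largemyd. Double mutant mice 1 and 5 had the highest levels of the glucocorticoid targets and atrophy genes described below. Largemyd mice 1 and 2 correlated with each other at r = 0.994 across genes and with Largemyd mice 3 to 5 at 0.974 to 0.985, and carried lymph node markers at 7.30 and 6.92 against 5.56 to 5.79 in the other Largemyd mice; double mutant mouse 2 had 6.83. Markers of skeletal muscle itself were high in all 10 arrays (12.78 to 13.06 over 12 genes). Levels of Xist, a transcript of the inactive X chromosome, were low in all 10 (4.19 to 4.74), where high levels would go against the male label.

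At 21 days 1104 genes passed, 5.54% of those tested. Of these, 347 (1.74% of tested genes) were higher in the double mutant and 757 (3.8%) were lower, and 49 differed at least 2-fold, 19 higher and 30 lower. The 5 and 5 arrays did not overlap for 557 genes (2.79%), and 346 of the called genes were among them. The split by direction depended on scaling: with each array's median subtracted, 356 genes were higher and 497 lower. The count also depended on single mice. It was 548 without Largemyd mouse 3, 636 without double mutant mouse 1 and 1923 without Largemyd mouse 2. A fit of the 10 arrays alone passed 45 genes, all of which were among the 1104. Genes named below follow a rule of size within the called genes and the lists, except Xist, H2-Ea, Fbxo32, Trim63, Myh3, Myh8, Cd68, Pax7, Myog, Lama2 and the sarcoglycans, which were chosen after their values were seen.

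Dmd itself was lower in the double mutant. Its levels were 9.20, 9.02, 8.92, 9.07 and 8.94 in double mutant mice 1 to 5 and 9.51, 9.64, 9.67, 9.72 and 9.45 in Largemyd mice 1 to 5. No double mutant reached any Largemyd mouse. The difference was -0.57 ± 0.18, a 1.48-fold fall (limma adjusted p = 0.0438). C57Bl/6 mice of this age ranged from 9.24 to 10.12 and Dmdmdx mice from 8.31 to 8.83, so the double mutants lay above every Dmdmdx mouse and below every C57Bl/6 mouse. The call for Dmd was close to the threshold: it was lost with array medians subtracted (-0.55, adjusted p = 0.0717) and, at -0.54 to -0.61, without any 1 of 7 mice (Largemyd 3, 4 or 5, double mutant 1, 2, 3 or 5), where adjusted p reached 0.104.

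Utrn, which encodes the dystrophin homologue utrophin, differed by -0.08 ± 0.07 (adjusted p = 0.54), and Dag1, which encodes dystroglycan, by -0.13 ± 0.10 (adjusted p = 0.481); for both, the groups overlapped. Of 26 measured genes of the dystrophin complex, 1 rose and 2 fell, Dmd among them (11.5% called against 5.54% of all genes), with a median difference of -0.09 against 0.014 over all genes. Sntb2, encoding the adaptor β2-syntrophin, rose by 0.28 ± 0.07, with all double mutants (8.62 to 8.97) above all Largemyd mice (8.38 to 8.59). Lama4, encoding laminin α4 of vessel and nerve basement membranes, fell by 0.51 ± 0.12. The sarcoglycans Sgca, Sgcb and Sgcd differed by 0.29, -0.02 and 0.13, and Lama2, the main muscle laminin chain, by -0.35; none of these passed. None of 13 measured genes of dystroglycan glycosylation passed, and 1 had an unadjusted p under 0.05 (median -0.03, differences between -0.27 and 0.08).

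**Figure D1:**
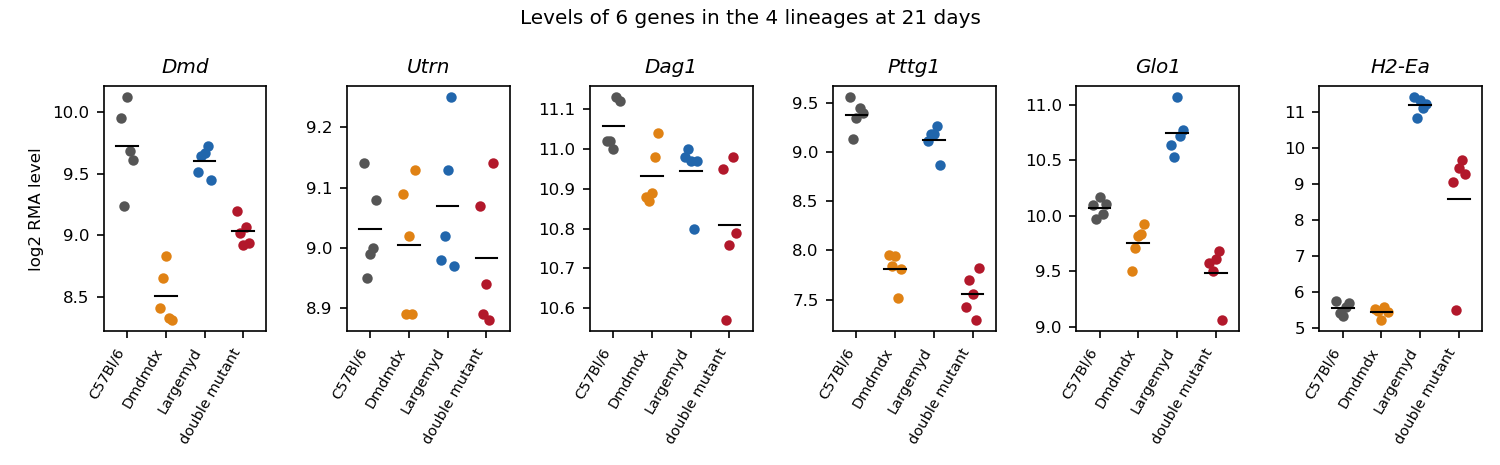
Log2 level of 6 genes (vertical axes) in each of the 20 mice at 21 days, by lineage; points are mice and bars group means. Double mutants lie below all Largemyd mice for Dmd, Pttg1, Glo1 and H2-Ea and overlap them for Utrn and Dag1, and for H2-Ea 1 double mutant is at 5.50.

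Among the 15 largest rises named here, that of Prg4 was the largest. Prg4 encodes lubricin, a lubricating proteoglycan of joints and tendon surfaces. Its levels were 12.85, 12.55, 12.35, 12.48 and 12.71 in the double mutants and 11.23, 11.47, 10.61, 11.97 and 10.75 in Largemyd mice. The double mutants were the more uniform group. The difference was 1.38 ± 0.24 (2.61-fold, adjusted p = 0.00017). C57Bl/6 mice had 8.70 to 9.28 and Dmdmdx mice 11.70 to 12.30. Prg4 was thus high in every mutant lineage and highest in the double mutant.

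Lrmda, named for its link to melanocyte differentiation, followed another order. Its levels were 7.40 to 7.70 in the double mutants, 5.73 to 6.56 in Largemyd, 7.35 to 7.71 in C57Bl/6 and 7.61 to 7.75 in Dmdmdx. Largemyd was the group that stood apart, and the double mutant lay with C57Bl/6 and Dmdmdx. The difference was 1.34 ± 0.14 (adjusted p = 4.5e-09). Nxpe4, a member of the neurexophilin and PC-esterase family, was likewise lowest in Largemyd (5.67 to 6.49), with 6.95 to 7.49 in the double mutants, 7.72 to 7.92 in Dmdmdx and 7.82 to 8.33 in C57Bl/6 (difference 1.33 ± 0.18, adjusted p = 1.9e-06).

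Arl14ep, encoding an effector of the small GTPase ARL14, was 8.44, 8.33, 8.37, 8.44 and 8.58 in the double mutants and 7.61, 7.69, 7.79, 7.65 and 7.69 in Largemyd. Here Largemyd matched the C57Bl/6 range (7.55 to 7.78) and the double mutant lay within that of Dmdmdx (8.11 to 8.80). The difference was 0.75 ± 0.10 (adjusted p = 1.9e-06). Kcnc4, encoding the fast potassium channel Kv3.4, was 8.71 to 9.06 in the double mutants, 8.03 to 8.39 in Largemyd, 8.86 to 9.10 in C57Bl/6 and 8.30 to 8.66 in Dmdmdx. It rose by 0.69 ± 0.14 (adjusted p = 0.00118), so that the double mutants stood close to C57Bl/6.

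A further 3 rises kept their call in every setting they were tested in, as did the 5 above. Scgb3a1, a small secreted protein best known from airway epithelium, was higher by 0.95 ± 0.12, Lgals4, a galectin, by 0.88 ± 0.10 and Nnmt, which methylates nicotinamide, by 0.73 ± 0.15. In each, all 5 double mutants were above all 5 Largemyd mice. The other 7 named rises, Vsig4, Dusp26, Btg2, Npc1, Cyb5r4, Ift57 and Parp3, lay between 0.66 and 1.03 and lost their call in at least 1 setting.

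In some of these the rise was carried by double mutant mice 1 and 5. Dusp26, a dual specificity phosphatase, was 9.45 and 9.39 in these mice but 7.79 to 8.01 in the other double mutants, just above Largemyd at 7.23 to 7.78. Npc1, which exports cholesterol from lysosomes, was 11.58 and 11.19 against 10.07 to 10.28 in the other double mutants and 9.51 to 10.06 in Largemyd. Btg2, an early-response antiproliferative gene, was 10.29 and 11.01 against 9.50 to 9.86 and 8.93 to 9.37. All 3 lost their call with mice 1 and 5 left out together.

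**Figure D2:**
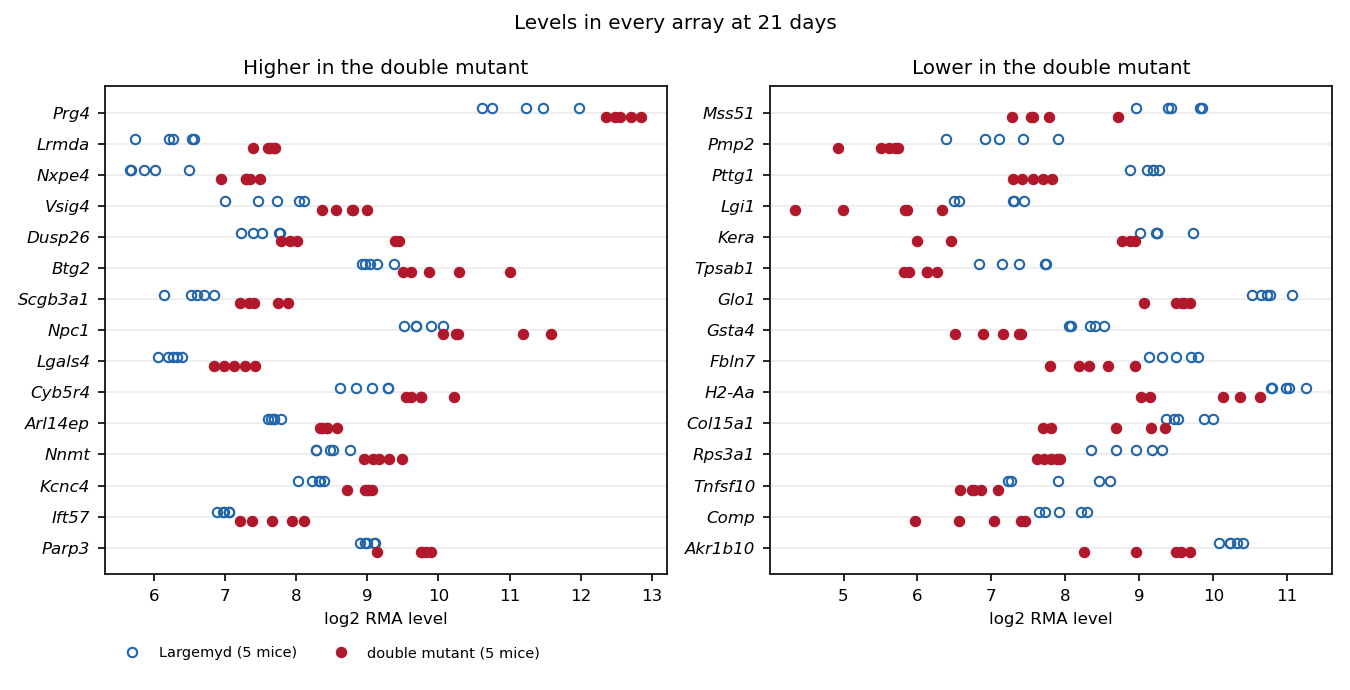
Log2 level (horizontal axes) of the 15 named genes with the largest rises and the 15 with the largest falls in each of 10 mice; open circles are Largemyd and filled circles double mutant. The groups do not overlap for any of these genes, which is how they were chosen, and the widest double mutant spread is that of Kera, from 5.99 to 8.94.

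Among the falls, that of Pttg1 had the smallest adjusted p. Pttg1 encodes securin, an inhibitor of sister chromatid separation before anaphase. Its levels were 7.42, 7.70, 7.56, 7.29 and 7.82 in the double mutants and 9.11, 9.19, 9.18, 9.27 and 8.87 in Largemyd. The difference was -1.57 ± 0.13, a 2.96-fold fall (adjusted p = 7.4e-12). Largemyd overlapped C57Bl/6 (9.13 to 9.56), and the double mutants overlapped Dmdmdx (7.52 to 7.95). None of 39 measured genes in a separate cell cycle list passed, and 0 had an unadjusted p under 0.05 (median 0.06, differences from -0.34 to 0.46).

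Glo1, encoding glyoxalase I, which detoxifies methylglyoxal, was 9.58, 9.50, 9.61, 9.68 and 9.06 in the double mutants and 10.64, 10.53, 11.07, 10.72 and 10.77 in Largemyd. Largemyd exceeded every other lineage, since C57Bl/6 ranged from 9.97 to 10.17 and Dmdmdx from 9.50 to 9.93. The difference was -1.26 ± 0.11 (2.40-fold, adjusted p = 2.1e-11), and a second probe set of Glo1 gave -1.19. Glo1 is known to vary in copy number among inbred mouse strains, and whether it does so here was not tested.

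Gsta4, a glutathione S-transferase that clears products of lipid peroxidation, was 6.51 to 7.40 in the double mutants and 8.05 to 8.52 in Largemyd. It fell by 1.21 ± 0.14 (adjusted p = 1.4e-08), while C57Bl/6 (7.91 to 8.43) overlapped Largemyd. Tpsab1, a tryptase of mast cells, was 6.26, 6.13, 5.82, 5.89 and 6.13 in the double mutants and 7.14, 7.37, 7.74, 6.83 and 7.72 in Largemyd. Largemyd was highest, and all double mutants also lay above C57Bl/6 at 5.49 to 5.75 and Dmdmdx at 5.45 to 5.59. The difference was -1.32 ± 0.15 (adjusted p = 4.3e-08).

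Mss51, a mitochondrial protein enriched in skeletal muscle, had the largest fall of these 15. Its levels were 7.53, 7.56, 7.78, 8.71 and 7.28 in the double mutants and 9.82, 9.85, 9.39, 9.43 and 8.96 in Largemyd. Double mutant mouse 4 was the highest of its group and still below the lowest Largemyd mouse. The difference was -1.72 ± 0.33 (3.29-fold, adjusted p = 0.00071), with C57Bl/6 at 9.39 to 10.29 and Dmdmdx at 8.89 to 9.71. The double mutant was therefore the lowest of the 4 lineages.

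Pmp2, the lipid-binding P2 protein of peripheral myelin, was 5.50, 5.73, 5.61, 5.69 and 4.92 in the double mutants and 6.39, 6.91, 7.90, 7.10 and 7.43 in Largemyd. It fell by 1.66 ± 0.22 (3.15-fold, adjusted p = 7.7e-07) and was also below C57Bl/6 (7.79 to 8.99) and Dmdmdx (6.42 to 7.86). Gldn, encoding gliomedin of the node of Ranvier, fell by 0.49 ± 0.12, with double mutants at 6.81 to 7.34 and Largemyd at 7.41 to 7.80. The other 21 of 23 measured Schwann cell and myelin genes did not pass. The list had 8.7% called against 5.54% of all genes, with a median of -0.07. Rps3a1, a ribosomal protein gene with many near-identical pseudogene copies that the probes may not separate, fell by 1.10 ± 0.16 (7.62 to 7.93 against 8.35 to 9.31).

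The other 8 named falls lay between -1.06 and -1.55. They were Lgi1, a secreted synaptic and glial protein, the tendon and matrix genes Kera, Comp, Col15a1 and Fbln7, the class II gene H2-Aa, the death ligand Tnfsf10 and the aldo-keto reductase Akr1b10. Of the 30 named rises and falls, 15 kept their call in every setting they were tested in, 27 kept it without each single mouse, and none changed sign. Vsig4, Lgi1 and H2-Aa were the 3 that lost it without 1 mouse. Lrmda, Nxpe4, Scgb3a1, Lgals4, Pmp2, Lgi1 and Tpsab1 were too low to be tested when genes of low level were left out.

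Extracellular matrix genes were lower in the double mutant as a group. Of 43 measured matrix genes 14 fell and 1 rose (34.9% called against 5.54% of all genes), with a median of -0.31. Of 15 tendon genes 7 fell and none rose (median -0.46), and of 20 genes of fibro-adipogenic progenitors, the stromal cells that make muscle matrix, 5 fell and none rose (median -0.28). Some genes, Col15a1 among them, are in more than 1 of these lists. In bulk tissue, fewer cells of a type and less RNA per cell cannot be told apart.

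Double mutant mice 1 and 5 were far lower than the rest for several of these genes. Kera, a keratan sulphate proteoglycan, was 5.99 and 6.45 in double mutant mice 1 and 5, 8.76 to 8.94 in mice 2 to 4 and 9.01 to 9.73 in Largemyd (difference -1.49 ± 0.34, adjusted p = 0.00419). Tnmd, the tendon glycoprotein tenomodulin, was 7.45 and 7.44 in mice 1 and 5, 9.91 to 10.29 in mice 2 to 4 and 10.16 to 10.81 in Largemyd (-1.41 ± 0.34, adjusted p = 0.00731). For Kera mice 2 to 4 lay just under Largemyd, and for Tnmd mouse 4 lay inside the Largemyd range.

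Comp, a pentameric matrix protein of cartilage and tendon, fell by 1.08 ± 0.23, and Cilp, which binds TGF-β in connective tissue, by 0.82 ± 0.21. Col15a1, a basement membrane collagen, was 7.80, 8.69, 9.16, 9.35 and 7.70 in the double mutants and 9.36, 9.47, 9.52 and 9.88 in Largemyd mice 2, 4, 1 and 3, with mouse 5 highest (-1.11 ± 0.19, adjusted p = 0.00014). Mfap4, a microfibril protein, fell by 0.97 ± 0.26 and Fmod, a collagen-binding proteoglycan, by 0.64 ± 0.19. Ccn2, encoding connective tissue growth factor, was the 1 matrix gene that rose (0.69 ± 0.19, adjusted p = 0.0206), with mouse 5 highest at 11.95.

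The dependence of these counts on mice 1 and 5 was strong. With both left out, an alternative chosen after seeing the data, 1 matrix gene, no tendon gene and 1 progenitor gene still fell, and the medians were -0.15, -0.29 and -0.12. Leaving out only mouse 1 or only mouse 5 left 4 falls each in the matrix and in the tendon list, and so did leaving out Largemyd mouse 3. Among progenitor genes 2, 1 and 1 still fell in these 3 settings, and in the matrix list 6 fell without Largemyd mouse 4 and 7 without Largemyd mouse 5. The 10 arrays alone called none of them. The mean of the tendon list was 8.21 and 8.78 in mice 1 and 5, 9.11 to 9.27 in mice 2 to 4 and 9.18 to 9.73 in Largemyd.

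Genes of pericytes and smooth muscle followed the same direction, with 5 of 17 lower and none higher (29.4% called against 5.54% of all genes, median -0.25). Cnn1, Myh11, Rgs5 and Mcam, which encode contractile and surface proteins of mural cells, fell by 0.34 to 0.68. Mcam was uniform, at 9.19 to 9.33 in the double mutants and 9.47 to 9.80 in Largemyd. Without any 1 of Largemyd mice 3 and 4 and double mutant mice 1 and 5, 1 of these genes still fell, and without double mutant mouse 2 or Largemyd mouse 5, 2 and 3 did. None fell with double mutant mice 1 and 5 left out together or without the arrays carrying markers of other tissue. None of 27 endothelial genes passed, though 12 had an unadjusted p under 0.05 (median -0.20). Of 31 proteases and inhibitors 4 fell (Mmp12, Adamts5, Mmp23 and Plat) and none rose (12.9% called). In that list 2 fell without any 1 of double mutant mice 1 and 5 and Largemyd mice 3, 4 and 5. Adamts5, which cleaves aggrecan, was 8.62 to 8.80 in the double mutants and 8.76 to 9.71 in Largemyd (-0.72 ± 0.14).

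Genes of energy metabolism were lower in the double mutant. Of 69 measured oxidative phosphorylation genes 16 fell and none rose (23.2% called, median -0.26), and 67 of the 69 differences were negative. Of 31 fatty acid oxidation genes 9 fell (29.0% called, median -0.22), and of 24 genes in the tricarboxylic acid cycle list 5 fell (20.8%, median -0.20). Of 24 glycolysis and glycogen genes 2 fell, Phkb and Ldha (8.33%, median -0.21). None rose in any of these lists, and 5.54% of all genes were called.

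Cox7a1, the muscle form of a cytochrome c oxidase subunit, was 10.89, 11.52, 11.43, 11.94 and 9.93 in the double mutants and 11.91 to 12.24 in Largemyd. Mouse 4 lay inside the Largemyd range and mouse 5 was the lowest by far. The difference was -0.90 ± 0.20 (1.87-fold, adjusted p = 0.00387). The complex I subunits Ndufb8, Ndufc1 and Ndufab1 fell by 0.60, 0.56 and 0.55. For each of these mouse 5 was the lowest of the 10.

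In fatty acid oxidation, Ucp3, the muscle uncoupling protein, fell by 0.85 ± 0.25, Esrrg, a nuclear receptor that drives oxidative genes, by 0.56 ± 0.17, and Decr1 and Acads, enzymes of β-oxidation, by 0.55 ± 0.12 and 0.52 ± 0.10. Acads was 8.85 to 9.39 in the double mutants and 9.40 to 9.79 in Largemyd, without overlap. In the tricarboxylic acid cycle list Dlat, Dld, Fh1 and Mdh1 fell by 0.38 to 0.46. Dlat, Dld and Fh1 encode subunits or enzymes from pyruvate entry to malate, and Mdh1 the cytosolic malate dehydrogenase, outside the cycle itself.

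These counts depended on single mice. Without double mutant mouse 5, 4 oxidative phosphorylation, 4 fatty acid oxidation and no tricarboxylic acid cycle genes fell. Without double mutant mouse 1 the counts were 10, 5 and 1, and without Largemyd mouse 3 they were 7, 6 and 2. Fatty acid oxidation also went to 5 without Largemyd mouse 1 or 2 or double mutant mouse 2, and the tricarboxylic acid cycle to 2 and 3 without Largemyd mouse 1 and 2. No glycolysis gene fell without double mutant mouse 1 or 5, without Largemyd mouse 3 or without the arrays carrying markers of other tissue. Without double mutant mouse 4, 8 of them fell. The next counts are again of the first 3 lists. With double mutant mice 1 and 5 left out together the counts were 0, 2 and 1, and with the arrays carrying markers of other tissue left out, among them double mutant mice 3 and 5, they were 0, 2 and 0. The mean oxidative phosphorylation level was 10.54 in mouse 5, 10.91 to 11.12 in the other double mutants and 11.12 to 11.27 in Largemyd; mouse 5 is the array with marrow markers, whose part in the result was not tested.

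**Figure D3:**
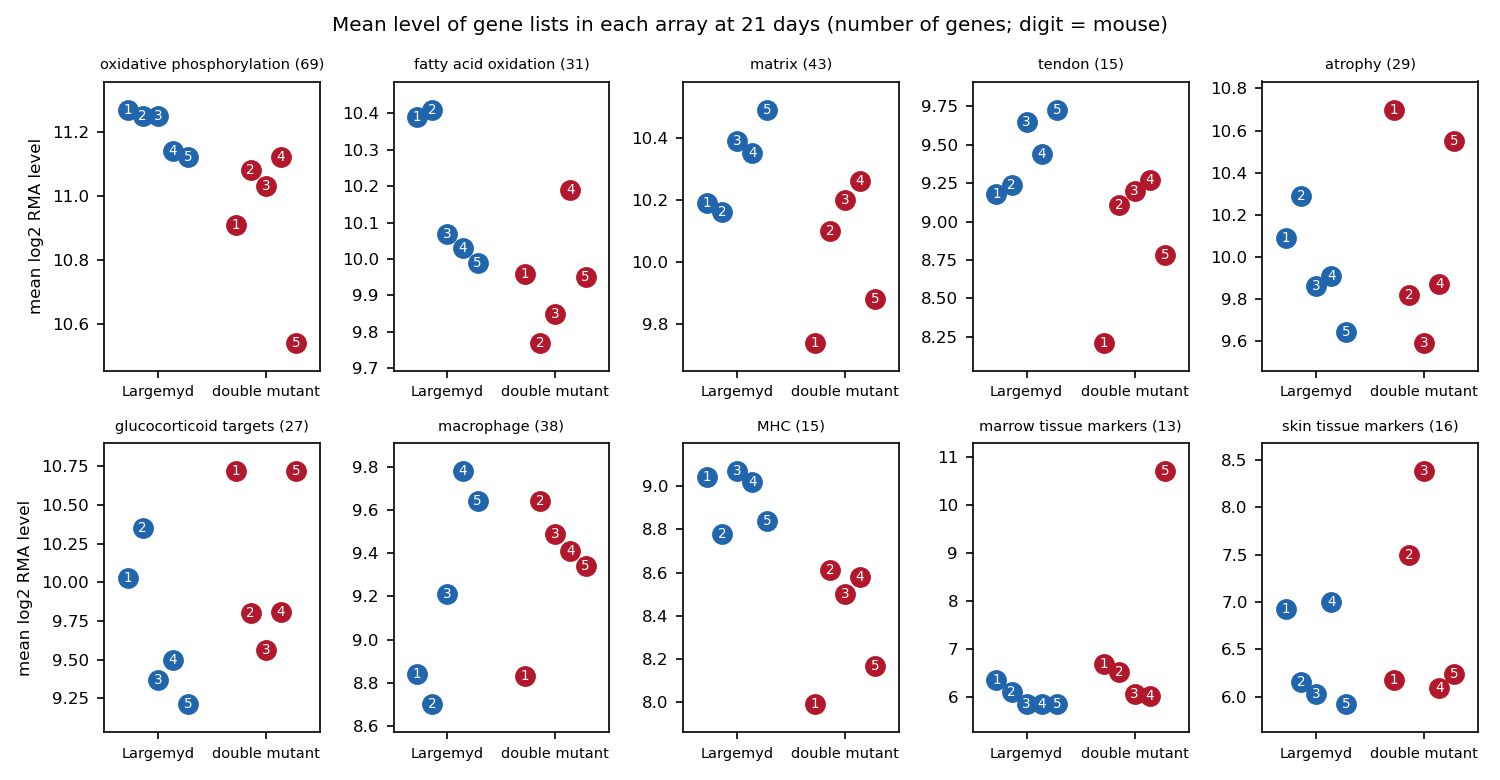
Mean log2 level of 10 gene lists (vertical axes) in each array, with the mouse number in each point and the number of genes in each title. Double mutant mice 1 and 5 are lowest for matrix, tendon and MHC and highest for atrophy and glucocorticoid targets, and mouse 5 is alone in its marrow level of 10.71.

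None of 23 genes of regenerating sarcomeres passed, and 1 had an unadjusted p under 0.05 (median -0.10). Myh3, embryonic myosin, was 9.50 to 10.54 in the double mutants and 9.85 to 11.26 in Largemyd, both far above the 6.54 to 7.51 of C57Bl/6. Myh8, perinatal myosin, was 10.24 to 11.41 and 10.31 to 11.12, against 7.62 to 8.22 in C57Bl/6. The 2 groups therefore both had high levels of developmental myosins, and the differences between them, -0.20 ± 0.36 and 0.01 ± 0.25, were smaller than their errors.

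Of 24 satellite cell and myogenic genes 3 fell and none rose (12.5% called). These were the Notch pathway members Heyl (-0.58 ± 0.15) and Notch3 (-0.29 ± 0.09) and the phagocytic receptor Megf10 (-0.41 ± 0.12). All had overlapping groups, and all were without a call once double mutant mice 1 and 5 were left out. No gene of the list passed without double mutant mouse 1 alone or Largemyd mouse 5 alone. Without double mutant mouse 2 or 5 or Largemyd mouse 3, 1 gene fell. Pax7, which marks satellite cells, and the differentiation factor Myog did not pass (-0.13 ± 0.11 and -0.51 ± 0.27). In the fibre type lists 1 of 20 fast genes and 1 of 16 slow genes fell, shares of 5.0% and 6.25% that lie near the 5.54% of all genes. Mylk4, a myosin light chain kinase, was 6.60 and 6.27 in mice 1 and 5, 8.59 to 9.47 in the other double mutants and 8.96 to 10.01 in Largemyd (-1.70 ± 0.38). Mb, myoglobin, was 10.75 and 10.27 against 11.53 to 12.17 and 11.95 to 12.15 (-0.75 ± 0.18). Among 22 genes of calcium release only Fkbp1a fell (-0.20 ± 0.06, 4.55% called), and none of 17 neuromuscular junction genes passed, 2 having an unadjusted p under 0.05 (median -0.15).

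Of 38 macrophage genes 2 rose and 1 fell (7.89% called against 5.54% of all genes, median 0.13). The direction turned with Largemyd mice 1 and 2 left out, where 1 rose, 8 fell and the median was -0.24; without mouse 1 or 2 of Largemyd alone it was -0.01 and -0.02. Vsig4, a complement receptor of resident macrophages, was 9.0, 8.36, 8.80, 8.56 and 8.78 in the double mutants and 8.11, 7.73, 7.47, 8.04 and 7.0 in Largemyd. Both groups exceeded C57Bl/6 (4.41 to 4.88) and Dmdmdx (6.67 to 6.95). The difference was 1.03 ± 0.32 (2.04-fold, adjusted p = 0.0411), and it lost its call without any of 5 mice (double mutant 1, 3 or 5, Largemyd 3 or 5). Lyz1, a lysozyme, rose by 0.93 ± 0.24 and Mmp12, macrophage elastase, fell by 1.11 ± 0.35 (limma adjusted p = 0.0467). For Mmp12 the groups overlapped, at 6.62 to 8.44 in the double mutants and 7.90 to 9.81 in Largemyd. It lost its call without double mutant mouse 1, any 1 of Largemyd mice 3 to 5, or the arrays carrying markers of other tissue. Cd68, a general macrophage marker, differed by 0.13 ± 0.28.

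Of 15 measured MHC genes 2, both of class II antigen presentation, fell and none rose (13.3% called against 5.54% of all genes). All 15 differences were negative (median -0.28). H2-Aa, the class II Aα chain, was 9.02, 10.63, 10.13, 10.36 and 9.15 in the double mutants and 10.78 to 11.26 in Largemyd (-1.11 ± 0.29, adjusted p = 0.0154). Cd74, the invariant chain that escorts class II molecules, was 9.13 to 10.50 and 10.80 to 11.02 (-1.01 ± 0.30, adjusted p = 0.0344). Mice 1 and 5 were again lowest in both genes, and neither passed without both, without mouse 1 alone or without mouse 5 alone.

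H2-Ea, the class II Eα chain, had a larger difference that did not pass. Its levels were 9.04, 5.50, 9.43, 9.65 and 9.27 in the double mutants and 11.41, 10.83, 11.34, 11.11 and 11.23 in Largemyd. Double mutant mouse 2 was as low as C57Bl/6 (5.34 to 5.75) and Dmdmdx (5.21 to 5.59), while the other 4 lay between those lineages and Largemyd. The difference was -2.61 ± 0.89 (adjusted p = 0.0681). As background, strains of the H2b haplotype, which include C57BL/6, carry a deletion in the H2-Ea promoter; which haplotype each mouse carried was not tested. H2-Ea, Glo1 and Tpsab1 all lie on chromosome 17, with many tested genes between them. The called gene H2-Aa lies close to H2-Ea, at ranks 425 and 428 in the order of tested genes on that chromosome. Over the whole chromosome 5.77% of tested genes were called, beside 5.54% of all genes. That share cannot show whether a shorter stretch differs, and linkage was not tested.

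Neutrophil genes were highest in the array with marrow markers, whose part in these rises was not tested. Chil3, a chitinase-like protein, was 11.20 in mouse 5, 5.61 to 7.45 in the other double mutants and 3.65 to 6.28 in Largemyd (3.17 ± 0.83, adjusted p = 0.0146), and Stfa2, a neutrophil stefin, was 11.51 in mouse 5, 5.10 to 6.57 and 4.38 to 5.31 (1.95 ± 0.48). These were the 2 of 20 neutrophil genes that passed, and all 20 differences were positive with a median of 1.24. Without mouse 5 the median was 0.30 and 1 gene passed. In the remaining immune lists 1 of 24 T and NK cell genes fell (Thy1, -1.01 ± 0.19, which fibroblasts also express), 1 of 32 chemokines and cytokines rose (Osm, 0.36 ± 0.11), and 1 of 27 complement and acute phase genes rose (Itih4, 0.75 ± 0.15). These shares, 4.17%, 3.12% and 3.7%, lie under the 5.54% of all genes. None of 16 B cell genes and none of 24 interferon-induced genes passed, with 0 and 4 at an unadjusted p under 0.05 (medians -0.07 and -0.25).

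Glucocorticoid targets had a median difference of 0.47 over 27 genes, and 22 of the 27 were positive, but only Zbtb16, a zinc finger regulator, passed (0.77 ± 0.23, adjusted p = 0.0387). The spread lay within the groups. The mean of the list was 10.72 in double mutant mice 1 and 5, 9.56 to 9.81 in mice 2 to 4, 10.03 and 10.35 in Largemyd mice 1 and 2 and 9.21 to 9.50 in Largemyd mice 3 to 5. Fbxo32, the atrophy ubiquitin ligase atrogin-1, followed it at 12.15 and 11.80, 7.70 to 9.38, 10.42 and 11.11, and 8.27 to 9.84, and differed between the groups by 0.27 ± 0.42. Trim63, the ligase MuRF1, was 12.49 and 12.20 in double mutant mice 1 and 5 and 8.97 to 9.64 in mice 2 to 4 (0.08 ± 0.38). With Largemyd mice 1 and 2 left out, also chosen after seeing the data, 17 of the 27 targets passed, all higher. Without Largemyd mouse 2 alone 15 passed, without double mutant mouse 3 alone 6 and without double mutant mouse 4 alone 4, all higher. None passed without double mutant mouse 1, without any 1 of Largemyd mice 3 to 5 or without the arrays carrying markers of other tissue, and with double mutant mice 1 and 5 left out 1 was lower. Zbtb16 also lost its call without double mutant mouse 5.

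Of 29 atrophy genes 2 rose and none fell, the translation repressor Eif4ebp1 (0.53 ± 0.15) and the antioxidant regulator Nfe2l2 (0.48 ± 0.12), a share of 6.9% against 5.54% of all genes. The direction of this list turned with mice 1 and 5 left out, where none rose, 3 fell and the median went from 0.15 to -0.17, and none passed without mouse 5 alone. Single mice moved the count both ways, from 6 rises without double mutant mouse 3 and 5 without Largemyd mouse 2 to 1 without double mutant mouse 1 or any 1 of Largemyd mice 3 to 5. Of 24 integrated stress response genes 3 rose (12.5% called), Eif4ebp1 again, the cysteine-making enzyme Cth (0.80 ± 0.23) and the pseudokinase Trib3 (0.24 ± 0.08). None of these 3 passed without double mutant mouse 1 or 5, or without any 1 of Largemyd mice 3 to 5. Of 30 oxidative stress and metal genes 2 rose (6.67% called), the iron hormone Hamp (1.52 ± 0.34) and plasma glutathione peroxidase Gpx3 (0.99 ± 0.23). Cth, Eif4ebp1, Hamp and Gpx3 all had their highest or joint highest values in mice 1 and 5. None of 21 unfolded protein response genes and none of 13 heat shock genes passed, each list having 1 at an unadjusted p under 0.05 (medians -0.01 and -0.06).

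Among growth factors of the insulin-like and TGF-β families 4 of 30 genes fell and 1 rose (16.7% called against 5.54% of all genes). Igfbp5, an IGF carrier, fell by 0.83 ± 0.18, Ltbp4, which stores latent TGF-β, by 0.62 ± 0.14 and Tgfb3 by 0.47 ± 0.13, and the insulin receptor substrate Irs2 rose by 0.54 ± 0.16. Irs2 was 9.28 and 9.34 in double mutant mice 1 and 5 and 7.93 to 8.19 in the other double mutants, inside the Largemyd range of 7.64 to 8.57, and lost its call without either mouse or any 1 of Largemyd mice 3 to 5. Of 19 imprinted growth genes Nnat, neuronatin, fell (-1.90 ± 0.49, adjusted p = 0.0141), from 6.83 to 10.59 in Largemyd to 6.10 to 8.67 in the double mutants. That is 5.26% called, near the share of all genes. Nnat lost its call without Largemyd mouse 1, without double mutant mouse 5 and without the arrays carrying markers of other tissue. Of 16 clock genes Bhlhe41 and Nr1d1 fell (-0.76 ± 0.21 and -0.53 ± 0.17), neither of them without double mutant mouse 1 or 5 or Largemyd mouse 3 or 4, and of 20 hypoxia genes Higd1a, P4ha2 and Ldha fell (-0.57, -0.34 and -0.28), with 1 fall left in that list without double mutant mouse 1 or 5 or Largemyd mouse 3. In the lipid lists Me1, malic enzyme, fell by 0.81 ± 0.15 as the 1 of 29 adipocyte genes. Fdft1, squalene synthase, rose by 0.61 ± 0.17 as the 1 of 17 cholesterol synthesis genes, 13 of which had negative differences. These shares, 3.45% and 5.88%, lie under and near the 5.54% of all genes. Fdft1 was 11.46 and 10.82 in double mutant mice 1 and 5 and 9.78 to 9.93 in the other double mutants, inside the Largemyd range of 9.47 to 10.01, and lost its call without either mouse or without Largemyd mouse 5. Of 8 erythroid genes Bpgm, which makes 2,3-bisphosphoglycerate, fell (-0.57 ± 0.18, 12.5% called), against the rest of its list: 6 of the 8 differences were positive and the median was 0.44, or 0.05 without double mutant mouse 5. Bpgm lost its call without any 1 of 5 mice (Largemyd 1, 3 or 4, double mutant 1 or 2).

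The same genotypes at 3 and 6 months are separate mice, with which the 21-day differences could be set side by side. At 3 months 227 genes passed (1.14%) and at 6 months 268 (1.34%). Of the genes called at 21 days, 86 also passed at 3 months, which is 7.79% of the 21-day genes and 37.9% of the 3-month genes, and 85 of them had the same direction. At 6 months 44 also passed (3.99% and 16.4%), 38 in the same direction. At 6 months 3 of 5 Largemyd arrays, labelled male, had high Xist, up to 11.84; without them 17 genes passed at 6 months, 10 of which also passed at 21 days.

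At all 3 ages 20 genes passed, and 19 kept their direction. Pttg1 differed by -1.57 at 21 days, -1.66 at 3 months and -1.51 at 6 months, each ± 0.13. Prg4 differed by 1.38, 1.13 and 1.70, each ± 0.24, Lrmda by 1.34, 1.49 and 1.10, each ± 0.14, and Arl14ep by 0.75, 1.07 and 0.94, each ± 0.10. Dmd differed by -0.57, -0.83 and -0.70, each ± 0.18. The remaining genes of this set with 1 direction were Ublcp1, Slc22a4, Lyrm7, Snapc1, Mettl15, Ada, Ifnz, Fblim1, Parm1, Gsta4, Me1, Cyb5r4, AU040320 and the olfactory receptor pseudogene Olfr1372-ps1. Snord53, a small nucleolar RNA, rose at 21 days and 3 months (1.36 and 1.96) and fell at 6 months (-1.57).

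Without the Largemyd arrays of high Xist, 8 of the 20 still passed at all ages: Ada, Arl14ep, Lrmda, Mettl15, Olfr1372-ps1, Prg4, Pttg1 and Slc22a4. Dmd then differed by -0.57 ± 0.22 at 6 months (adjusted p = 0.356). Without both double mutant mice 1 and 5, 17 of the 20 passed at all ages.

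Several of these genes are close on the chromosomes of the reference assembly GRCm38.p6. Pttg1 and Ublcp1, a phosphatase of the nuclear proteasome, lie on chromosome 11 with 8 tested genes between them, 1 of which was called. Ublcp1 fell by 0.99 ± 0.19 (5.94 to 6.94 against 7.43 to 7.67). Slc22a4, a carnitine and ergothioneine transporter, and Lyrm7, an assembly factor of complex III, lie on the same chromosome with 9 between, 3 of them called. They rose by 0.65 ± 0.12 and 0.44 ± 0.10. Arl14ep and the mitochondrial methyltransferase Mettl15 lie on chromosome 2 with 2 tested genes between, neither of which was called, and both rose. Me1 and the reductase Cyb5r4 lie on chromosome 9 with 4 between, none of them called, and went in opposite directions (-0.81 ± 0.15 and 0.76 ± 0.13). A second probe set of Cyb5r4 gave 0.37. The share of tested genes called was 6.78% on chromosome 11, 4.85% on chromosome 2 and 7.55% on chromosome 9, beside 5.54% of all genes.

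**Figure D4:**
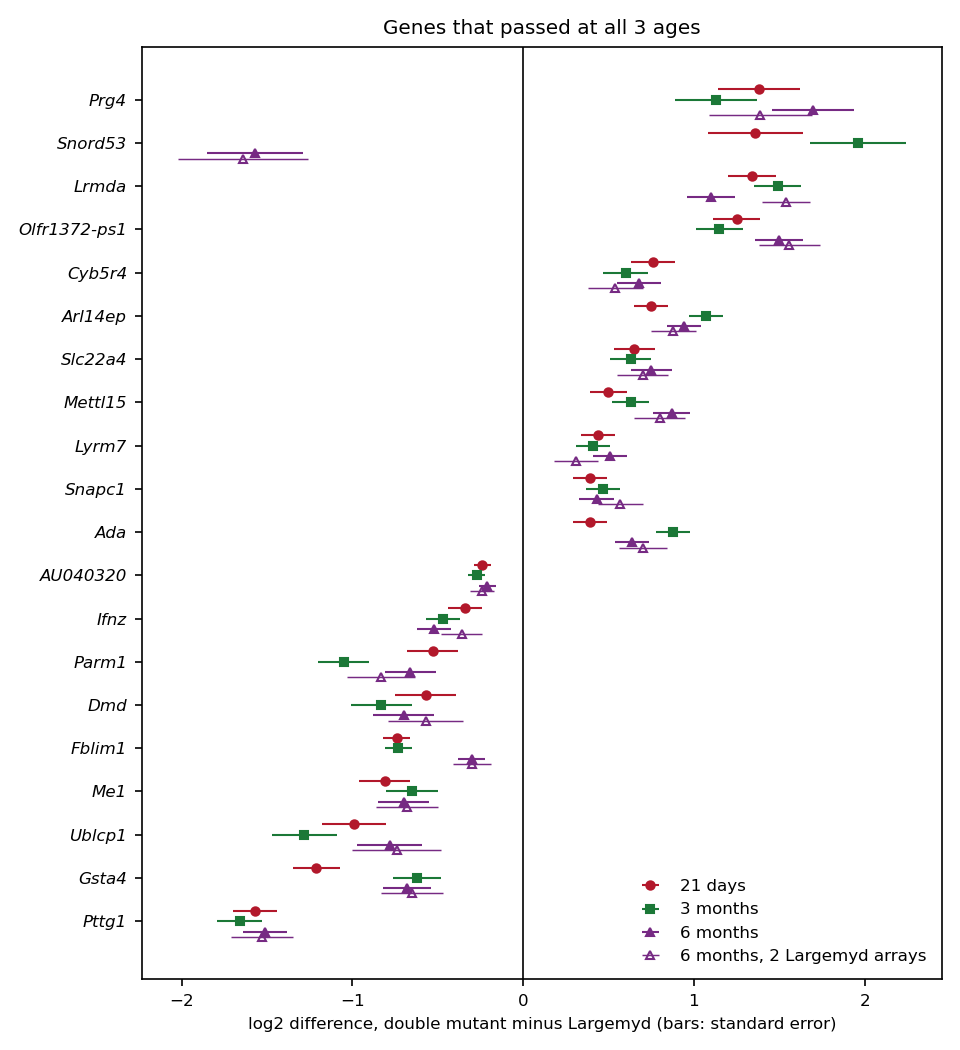
Log2 difference, double mutant minus Largemyd, at 21 days, 3 months and 6 months (horizontal axis) for the 20 genes that passed at all ages; bars are standard errors and open triangles leave out 3 Largemyd arrays of high Xist at 6 months. In the full fit all but Snord53 stay on 1 side of zero, and Pttg1 lies between -1.51 and -1.66.

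Whether a difference at 21 days departed from the later ages was tested directly. The difference at 21 days minus the mean of those at 3 and 6 months passed for 534 genes (2.68%), and 346 of the 1104 genes called at 21 days (31.3%) were among them. Without Largemyd mouse 5 the count was 105, without Largemyd mouse 3 115, without double mutant mouse 1 169, without Largemyd mouse 4 197, without double mutant mouse 4 835, and without Largemyd mouse 1 or 2 1268 and 1894. Kcnc4 went from 0.69 at 21 days to -0.47 and -0.44 at the later ages (change 1.15 ± 0.17, adjusted p = 9.3e-05), and Fbln7, a fibulin of cell-matrix adhesion, from -1.12 to 0.22 and 0.28 (change -1.37 ± 0.20, adjusted p = 9.3e-05). Pmp2 differed by -0.09 and -0.43 later, and Mss51 by -0.23 and -0.15.

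Medians of the lists at the later ages are given without a test, since none was run on a list. The median difference of the matrix list was -0.31 at 21 days and 0.21 and 0.08 at 3 and 6 months, that of the tendon list -0.46, 0.09 and -0.06, and that of oxidative phosphorylation -0.26, -0.16 and 0.11. In the other energy lists the medians at 21 days and 3 months were close, at -0.22 and -0.24 for fatty acid oxidation, -0.20 and -0.22 for the tricarboxylic acid cycle and -0.21 and -0.18 for glycolysis, and at 6 months they were 0.03, 0.06 and 0.12. Cilp changed by -1.19 ± 0.25 between ages (adjusted p = 0.0085), Tnmd by -1.56 ± 0.41 (adjusted p = 0.0327) and Cox7a1 by -0.87 ± 0.25 (adjusted p = 0.0444). Without the Largemyd arrays of high Xist, Cox7a1 changed by -0.73 and did not pass (adjusted p = 0.089).

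Outside the rises, falls and lists, the 5 genes with the largest age changes were Fcrls, Retnla, Itgax, Asprv1 and Cyp2g1. Fcrls, a scavenger receptor of myeloid cells, Retnla, made by alternatively activated macrophages, and Itgax, the integrin CD11c of dendritic cells and macrophages, were lower at 21 days by 1.45 ± 0.28, 1.69 ± 0.39 and 0.88 ± 0.22 and did not pass later. Fcrls was 5.37 to 7.14 in the double mutants and 6.68 to 8.67 in Largemyd, with mice 1 and 5 lowest. Asprv1, an epidermal protease, was 9.61, 9.96 and 10.97 in double mutant mice 2, 3 and 5, the arrays with skin or marrow markers, and 6.43 to 8.17 in the other 7 mice. Cyp2g1 was 8.10 and 7.61 in double mutant mice 2 and 3, those with skin markers, and 4.80 to 5.63 in the rest; the part of other tissue in these differences was not tested.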

How the data were processed

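Calf muscle RNA of 60 mice was hybridised to Affymetrix Mouse Gene 1.0 ST arrays, 1 array per mouse and 5 per group. The deposited values are log2 levels per probe set, made by the authors with RMA in Affymetrix Expression Console, per the submitters' processing notes; the version and the genome build are not given in the sources used here. Of 35556 probe sets, 21789 had a single gene symbol, 1621 several and 12146 none in the platform annotation, and 21698 of the single ones matched a current gene by Entrez ID. The probe set with the highest mean over 60 arrays stood for each of the 19938 genes, 999 of which had several.

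No value was renormalised. The mean over all genes differed by age: arrays of 21-day mice lay within 6.78 and 6.81, those of 3-month mice within 7.19 and 7.27 and those of 6-month mice within 7.32 and 7.37. Levels are therefore not compared across ages, and no source used here states if RMA was run per age; the age change sets differences within ages against each other, and the choice of probe set spans the ages. Group means of 12 groups were fitted with limma 3.58.1 in R 4.3.3 (lmFit, eBayes, 48 residual degrees of freedom), with Benjamini-Hochberg adjustment over all genes; all adjusted p-values are from limma's moderated test. Tables and figures used Python 3.11.15, pandas 2.3.3 and matplotlib 3.10.9. The age change is the difference at 21 days minus the mean of those at 3 and 6 months. Arrays have no read depth, and their number limits the precision. On simulated data for this comparison, changes of 0.5, 1 and 2 log2 units were recovered in 75.5%, 94.6% and 99.1% of genes. Over 5 simulations 6.04% of calls were false, and 0 genes were called with nothing changed. The simulation drew genes independently, with 1 spread per gene in all groups and no outlying arrays. Its rates therefore do not carry over to the real arrays, several of which stood apart.

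The 41 gene lists (1009 genes, 935 measured), the 9 tissue-marker lists and the comparison itself were chosen with earlier results of these data known. Named genes are the 15 largest rises and 15 largest falls that passed without overlap of arrays, leaving out predicted and clone-named genes, with Dmd, Utrn and Dag1, up to 4 passing genes per list and 5 genes of the age change. Alternatives covered the arrays fitted, scaling, low values, probe sets, eBayes settings, array weights and arrays with markers of other tissue.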

Additional observations from a re-analysis of the deposited data

Results flagged for a closer look

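Single mice stood apart from the rest of their group in 5 of 76 groups of 5 tested for the named genes, by the gap to the nearest mouse divided by the range (critical value 0.71). Chance sets apart about 5% of groups. Double mutant mouse 5 accounted for 3 of them: Pmp2 at 4.92 against 5.50 to 5.73, Glo1 at 9.06 against 9.50 to 9.68 and Parp3 at 9.14 against 9.76 to 9.89 in the other double mutants. Kcnc4 was 8.71 in double mutant mouse 2 against 8.97 to 9.06. Dag1 was 10.80 in Largemyd mouse 4 against 10.97 to 11.0. Genes named only from the lists, and H2-Ea, were not tested in this way. H2-Ea was 5.50 in double mutant mouse 2 against 9.04 to 9.65 in the other double mutants.

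The difference at 21 days departed from the mean of those at 3 and 6 months for 534 genes by limma's test of that change. That is 2.68% of all genes. Of 38 named genes 19 passed, a count that is no support of its own: 5 were chosen for the size of this change, and 30 for the size of the 21-day difference that enters it. Among the rises, the change was 1.16 for Dusp26, 1.15 for Kcnc4, 0.90 for Btg2, 0.68 for Scgb3a1, 0.67 for Nnmt and 0.61 for Lgals4. Among the falls, it was -1.53 for Mss51, -1.40 for Pmp2, -1.39 for H2-Aa, -1.37 for Fbln7, -1.14 for Akr1b10, -1.05 for Col15a1, -0.83 for Tpsab1 and -0.65 for Glo1. Fcrls and Retnla each changed by -1.87, Itgax by -1.35, Asprv1 by 1.73 and Cyp2g1 by 1.37. Without the 3 Largemyd arrays of high Xist at 6 months, 15 of the 19 passed; Btg2, Mss51, Asprv1 and Cyp2g1 did not.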

How the results depend on the processing

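The 1104 genes called at 21 days became 45 with the 10 arrays alone, 366 with the 20 arrays of this age, 275 after quantile normalisation of those 20 and 498 without arrays carrying markers of other tissue. Leaving out 1 mouse gave 548 to 1923. In alternatives chosen after seeing the data, the count was 608 without double mutant mice 1 and 5 and 3918 without Largemyd mice 1 and 2. Array weights turned the split to 844 higher and 714 lower. The 534 age changes became 1235 with array weights, 292 after quantile normalisation within each age, 913 with tissue marker covariates, 243 without arrays carrying other tissue and 105 to 1894 without 1 mouse; without the Largemyd arrays of high Xist, also chosen after seeing the data, there were 545. Dmd kept its direction throughout and lost its call with array medians subtracted (-0.55), quantile normalisation (-0.52), covariates (-0.45), other-tissue arrays left out (-0.50) and double mutant mice 1 and 5 left out (-0.60), and ranged from -0.61 to -0.54 without 1 mouse. The causes were not tested. Of 1050 list medians under alternatives, 6 moved beyond the spread between mice. No paired analysis was possible because the replicate numbers were given in accession order and pair no mice.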
